A study of Rattus norvegicus with 8 samples.

Results

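The genes described here are 9 markers of B cells and of the plasma cells they become, Cd79a, Cd79b, Ms4a1, Cxcr5, Pou2af1, Mzb1, Jchain, Tnfrsf17 and Xbp1, out of 32623 rat Ensembl genes counted in each library. They were chosen by name, and each name was found in all 8 libraries. RNA came from the epigastric vein that served as the outflow vein of an arteriovenous fistula (AVF) in Sprague Dawley rats, harvested 21 days after the vein had been joined to the femoral artery. A bilayer nanofiber scaffold was wrapped around the vein at surgery, loaded with β-aminopropionitrile (BAPN), which blocks lysyl oxidases, enzymes that crosslink collagen and elastin, or with no drug (vehicle). The BAPN group held 3 females (BAPN 1 to 3) and 1 male (BAPN 4), and the vehicle group 2 females (Vehicle 1 and 2) and 2 males (Vehicle 3 and 4), each library being a separate animal. Every rat in both groups therefore carried a fistula and a scaffold, no vein without surgery was part of the comparison, and ages are not stated.

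B cells recognize antigen through a membrane-bound antibody that signals through the paired chains CD79A and CD79B. After activation some of them become plasmablasts and plasma cells, which lose much of the surface receptor, enlarge the endoplasmic reticulum under the control of XBP1, and secrete antibody, with MZB1 and the J chain helping to assemble it. In blood vessels such cells are found mainly in the outer layer, where they can gather with T cells around local chemokine sources.

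Counts were scaled by the TMM method and are given as CPM, the count of a gene relative to the scaled total of its library. The BAPN libraries held 45039451 to 52241007 counts and the vehicle libraries 19548203 to 22442050, so that depth separated the groups and its effect cannot be told apart from that of treatment by design. A floor of 3 reads corresponded to 0.0589 to 0.0689 CPM with BAPN and to 0.126 to 0.148 CPM with vehicle, which covers counting error only. Markers of the labelled tissue were present in every library, with Myh11 of smooth muscle at 276 to 681 CPM with BAPN and 1010.0 to 1533 CPM with vehicle, and Tek of endothelium at 33.4 to 48.7 and 71.8 to 124 CPM. The tissue was sequenced in bulk, and more cells of a type cannot be told apart from more RNA per cell.

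Expression of 7 of the 9 genes was higher in each of the 3 BAPN females than in any of the other 5 libraries, a pattern that 4.54% of the genes with at least 1 read and 5.58% of the tested genes shared. The exceptions were Cxcr5 and Xbp1. The 7 genes were low in the BAPN male as well as in the vehicle animals of both sexes. For all 9 genes the BAPN male lay below every BAPN female and below the highest vehicle library, so that the 4 BAPN libraries and the 4 vehicle libraries overlapped for every member. That place of the BAPN male was shared by 20.4% of genes with at least 1 read. Complete separation of that kind, with all BAPN libraries above all vehicle libraries, was seen in 8.42% of genes with at least 1 read and in 12.7% of tested genes. Among the 5 members that reached a base mean of 100 normalized counts over the 8 libraries and were tested, Cd79b and Mzb1 were called higher with BAPN (2 of 5, edgeR quasi-likelihood test with Benjamini-Hochberg adjustment, FDR below 0.05), against 7.5% of all 11682 tested genes called higher. Since 3 of these 5, Cd79b, Pou2af1 and Mzb1, would not have reached that minimum in the vehicle libraries alone, their count is a description of the members and no measure of how members differ from other genes. Without a filter on low counts 2 of the 9 were called, again Cd79b (FDR 0.0480) and Mzb1 (FDR 0.0306), where 3.51% of 20421 genes were called higher.

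**Figure D1:**
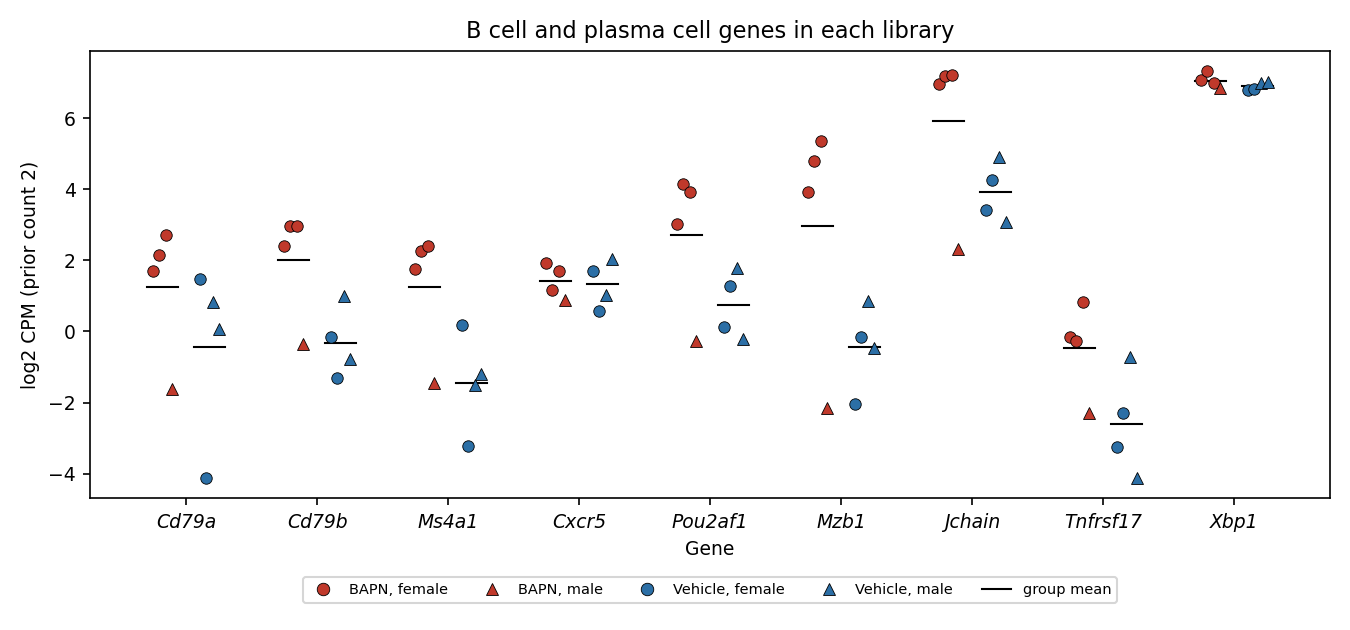
Log2 CPM (prior count of 2 reads) of the 9 genes in each library, with BAPN in red and vehicle in blue, circles for females, triangles for males and a bar at each group mean. The 3 red circles stand above the other 5 points for 7 genes, while the red triangle lies among or below the vehicle points, and Cxcr5 and Xbp1 show no such gap.

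Cd79b, a signaling chain of the B cell receptor, was at 5.29, 7.81 and 7.72 CPM in the BAPN females, 0.727 in the BAPN male, and 0.839, 0.344, 1.93 and 0.523 in Vehicle 1 to 4. The BAPN females were all above the highest vehicle library, and the BAPN male lay among the vehicle libraries. The group mean was 5.39 ± 3.32 CPM under BAPN scaffolds and 0.909 ± 0.709 CPM under vehicle scaffolds (SD, n = 4 each). The log2 fold change of 2.55 (standard error 1.31 from limma-voom) had an edgeR FDR of 0.0458, and an exact two-sided permutation test over the 70 arrangements of the libraries gave p = 0.0857, where the smallest p possible is 0.0286. The call rested on the choice of libraries. It was lost without any 1 of BAPN 1, BAPN 2, BAPN 3, Vehicle 1, Vehicle 2 or Vehicle 4 (edgeR FDR 0.0748 to 0.112) and held without BAPN 4 (0.0256) or Vehicle 3 (0.0455).

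Cd79a, the partner chain, gave 155, 223 and 283 reads in the BAPN females (3.20, 4.38 and 6.50 CPM), 13 in the BAPN male (0.270 CPM), and 58, 0, 41 and 21 in Vehicle 1 to 4 (2.70, 0, 1.72 and 0.999 CPM). The lowest BAPN female was only slightly above Vehicle 1, and Vehicle 2 had no read, which allows up to 0.148 CPM. Cd79a stayed under the base mean minimum. Without a filter on low counts its log2 fold change was 1.42 (standard error 1.62) with an edgeR FDR of 0.378, and the exact two-sided permutation p was 0.371. Both chains are needed for the receptor, and their log2 ratio within a library varied more among vehicle animals (SD 1.93) than among BAPN animals (SD 0.417), at counts of 0 to 58 in the former.

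Ms4a1, which encodes the B cell surface protein CD20, was at 3.30, 4.79 and 5.19 CPM in the BAPN females, 0.312 in the BAPN male, and 1.07, 0.0492, 0.293 and 0.380 in Vehicle 1 to 4. Vehicle 2 held a single read. The gene was likewise under the minimum, and without a filter its log2 fold change of 2.93 (standard error 1.39) had an edgeR FDR of 0.0639, with an exact two-sided permutation p of 0.0857. Leaving out BAPN 4 from the unfiltered fit brought the FDR to 0.0326. With any other library left out it was 0.0697 to 0.158.

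Cxcr5, the receptor that guides B cells and follicular helper T cells toward CXCL13, did not follow these genes. It was at 3.76, 2.20 and 3.21 CPM in the BAPN females, 1.79 in the BAPN male, and 3.17, 1.43, 1.97 and 4.09 in Vehicle 1 to 4. The groups overlapped almost completely, with the highest value in a vehicle male. Without a filter the log2 fold change was 0.07 (standard error 0.41, edgeR FDR 0.930, exact two-sided permutation p = 0.8).

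Pou2af1, a coactivator that works with Oct factors at antibody genes in B lineage cells, was at 8.14, 17.7 and 15.3 CPM in the BAPN females, 0.769 in the BAPN male, and 1.03, 2.36, 3.39 and 0.809 in Vehicle 1 to 4. The BAPN male held the lowest value of all 8 libraries. The log2 fold change of 2.46 (standard error 1.57) missed the threshold at an edgeR FDR of 0.0654, with an exact two-sided permutation p of 0.171. It passed without BAPN 4 (FDR 0.0253) and in DESeq2 (adjusted p 0.0061). With any other library left out it missed the threshold (edgeR FDR 0.0781 to 0.153).

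Mzb1, an endoplasmic reticulum cochaperone of antibody assembly, showed the widest gap. It was at 15.0, 27.7 and 41.3 CPM in the BAPN females and 0.166 in the BAPN male (726, 1412, 1798 and 8 reads), against 0.186, 0.836, 1.76 and 0.666 in Vehicle 1 to 4 (4, 17, 42 and 14 reads). The lowest BAPN female thus held many times the highest vehicle level, and the BAPN male the lowest level of all. Group means were 21.0 ± 17.6 and 0.862 ± 0.659 CPM (SD, n = 4 each). The log2 fold change was 4.59 with a standard error of 3.67, an edgeR FDR of 0.0346 and an exact two-sided permutation p of 0.143. The edgeR call held without BAPN 4 (FDR 0.0114) and was lost when any other library was left out, with an FDR of at most 0.0915.

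Jchain, which encodes the chain that links antibody units into IgM pentamers and IgA dimers, is shown here with the 250 bases before its start, since a motif related to the factors that Pou2af1 works with lies in them.
Jchain (GRCr8, chr14:19822726-19822975, + strand): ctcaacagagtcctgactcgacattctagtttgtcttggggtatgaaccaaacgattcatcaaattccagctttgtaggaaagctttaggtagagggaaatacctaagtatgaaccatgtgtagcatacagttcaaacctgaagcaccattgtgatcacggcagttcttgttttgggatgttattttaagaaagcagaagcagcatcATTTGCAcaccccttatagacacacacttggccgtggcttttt
The capitals mark ATTTGCA, the reverse complement of TGCAAAT, whose first base lies 43 bases before the start. It is 1 letter short of the octamer ATGCAAAT (ATTTGCAT on the other strand), the motif at which Oct factors and the Pou2af1 product act. On both strands of windows from 250 bases before to 50 after the start, the full octamer was in 1.78% of 33469 RefSeq promoters and in none of the 4 members with a promoter there (Cd79a, Jchain, Tnfrsf17 and Xbp1), and the shorter form, chosen after the sequence was seen and overlapping the octamer, was in 4.05%. A match is a description of letters and not of binding.

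Jchain was at 124, 145 and 149.7 CPM in the BAPN females, 4.90 in the BAPN male, and 10.5, 19.0, 29.7 and 8.47 in Vehicle 1 to 4. The BAPN females were close to each other (139 ± 13.7 CPM, SD, n = 3) and well above the vehicle range, and the BAPN male was below every vehicle library. The log2 fold change of 2.64 (standard error 1.32) had an edgeR FDR of 0.0561 and an exact two-sided permutation p of 0.143. Without BAPN 4 it was 3.04 with an FDR of 0.0128. With any other library left out the edgeR FDR was 0.0721 to 0.135.

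Tnfrsf17, which encodes BCMA, a survival receptor of plasma cells, was sparse, with 41, 39 and 75 reads in the BAPN females, 7 in the BAPN male and 1, 3, 13 and 0 in Vehicle 1 to 4. In CPM these were 0.847, 0.766, 1.72 and 0.145 with BAPN and 0.0466, 0.148, 0.545 and 0 with vehicle, the last allowing up to 0.143 CPM. The BAPN females were above the other 5 libraries, and the BAPN male was above Vehicle 1 and Vehicle 4, unlike for Mzb1 and Jchain. Without a filter the log2 fold change of 2.22 (standard error 1.04) had an edgeR FDR of 0.229, with an exact two-sided permutation p of 0.0857.

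Xbp1, the transcription factor of the unfolded protein response that many secretory cells use, was abundant in every library, at 134, 160.4 and 127 CPM in the BAPN females, 115 in the BAPN male, and 111, 113, 128 and 129 in Vehicle 1 to 4. BAPN 3 lay below both vehicle males. The log2 fold change was 0.15 (standard error 0.12, edgeR FDR 0.395, exact two-sided permutation p = 0.2). Across libraries in which Mzb1 ranged from 0.166 to 41.3 CPM, Xbp1 ranged only from 111 to 160.4 CPM. Its promoter is shown because it holds an element of the stress response that some genes of a list described below also hold.
Xbp1 (GRCr8, chr14:84604373-84604622, + strand): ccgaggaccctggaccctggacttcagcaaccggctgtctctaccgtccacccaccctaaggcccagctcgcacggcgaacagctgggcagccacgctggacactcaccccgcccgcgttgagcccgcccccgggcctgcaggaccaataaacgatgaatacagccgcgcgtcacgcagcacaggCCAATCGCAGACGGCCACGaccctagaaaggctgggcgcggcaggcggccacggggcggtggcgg
The capitals mark CCAAT, 9 bases of any kind and CCACG, the form of the endoplasmic reticulum stress element, with its first base 65 bases before the start. The search, chosen after the sequence was seen, covered both strands (ATTGG and CGTGG on the other).

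The treatment effect was also taken within each sex. Among females alone (3 BAPN and 2 vehicle), Cd79b (log2 fold change 3.54, FDR 0.0462), Mzb1 (5.78, FDR 0.0387) and Jchain (3.24, FDR 0.0256) were called by edgeR, 3 of the 5 tested members where 0.3% of all tested genes were called higher. Pou2af1 (3.02, FDR 0.0586) and Xbp1 (0.32, FDR 0.239) were not. Without a filter 4 of the 9 were called, those 3 and Pou2af1 (FDR 0.0150), where 0.763% of genes were called higher. When the female effect was taken from a fit of all 8 libraries with sex, treatment and their product, 0 of the 5 members were called, with 4 at an unadjusted p below 0.05, where 0.0599% of genes were called higher. Without a filter that female effect was called for Mzb1 (FDR 0.00213), Jchain (0.00684), Cd79b (0.0212) and Pou2af1 (0.0309), 4 of the 9. There 0.544% of genes were called higher. All 3 BAPN females were above both vehicle females for 8 of the 9 genes, Cxcr5 being the exception, an ordering seen in 19% of genes with at least 1 read. The male comparison rests on 1 BAPN library. In it the BAPN male was below both vehicle males for 6 of the 9 genes, as it was for 30.5% of genes with at least 1 read. Both orderings together were found in 5 of the 9 members and in 2.84% of genes with at least 1 read. In the fit with sex, treatment and their product, the male log2 fold change was -2.85 for Mzb1 (FDR 0.159), -1.96 for Jchain (0.139), -1.46 for Pou2af1 (0.356) and -0.76 for Cd79b (0.585).

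The difference between the sexes was tested by the interaction term of that fit. No gene of the 11682 passed (0% called), although 1442 had an unadjusted p below 0.05, among them 4 of the 5 tested members. The male minus female difference in log2 fold change was -8.63 for Mzb1 (FDR 0.154), -5.20 for Jchain (0.178), -4.30 for Cd79b (0.244) and -4.47 for Pou2af1 (0.257). Without a filter 0.196% of 20421 genes were called, Mzb1 (FDR 0.0201) and Jchain (0.0227) among them. With 1 BAPN male, sex cannot be told apart from that animal. With sex as a covariate and a common treatment effect, no member was called by edgeR and none had an unadjusted p below 0.05, with FDR values of 0.186 for Cd79b and 0.225 for Mzb1. DESeq2, run on all 8 libraries, called 4 of the 5, all but Xbp1, where it called 12.3% of genes higher. Leaving out BAPN 4 gave the same number from edgeR (4 of 5, with 3.71% of all tested genes called higher).

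**Figure D2:**
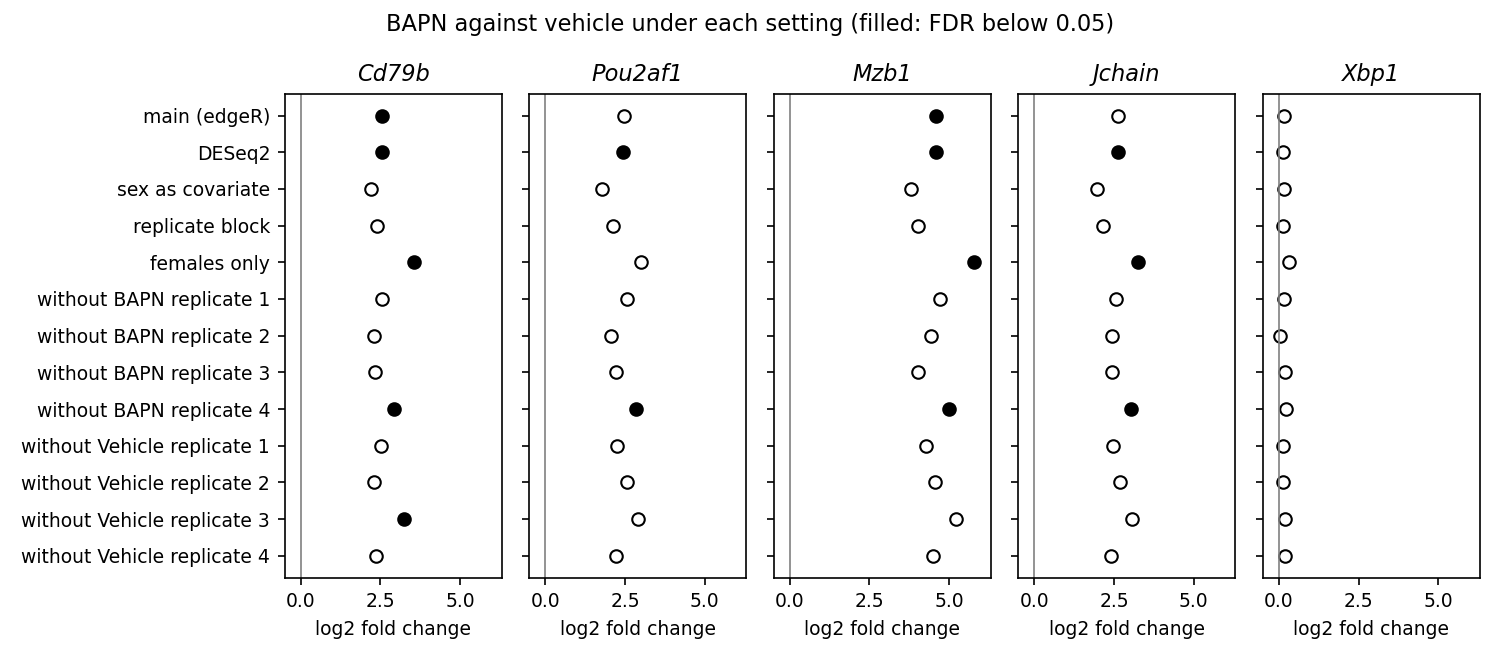
Log2 fold change of the 5 tested members, BAPN against vehicle, under the main edgeR fit, DESeq2, sex as covariate, the replicate number as block, females only and with each library left out, filled where the FDR is below 0.05. The points for Cd79b, Pou2af1, Mzb1 and Jchain stay well above 0 under every setting, while most are open, and those of Xbp1 lie close to 0.

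Of the 4 immunoglobulin genes on the list, 3 had all BAPN females above the other 5 libraries. These were Ighm, Ighv1-58 and Ighg1, the last resting on 1 read each in BAPN 3 and the BAPN male. The surrogate light chain gene Igll1 did not have that ordering, with 45 reads in Vehicle 3, 3 in BAPN 1 and none elsewhere. Ighm, the constant region of IgM, was at 780.5, 946 and 624 CPM in the BAPN females, 24.7 in the BAPN male, and 75.8, 65.4, 155 and 43.3 in Vehicle 1 to 4. Its log2 fold change of 2.81 (standard error 0.96) had an edgeR FDR of 0.0516, and 0.0119 without BAPN 4. Igh-6, another heavy chain entry that was named after its values were seen, was at 276, 942 and 692 CPM in the BAPN females, 2.93 in the BAPN male, and 9.23, 15.5, 28.8 and 2.19 in Vehicle 1 to 4 (log2 fold change 5.10, standard error 2.20, FDR 0.0355, and 0.256 with sex as a covariate). The variable segment Ighv1-58 had 578, 674 and 131 reads in the BAPN females, 0 in the BAPN male and a single read among the 4 vehicle libraries, so that it reached the base mean minimum only through the BAPN females, while Ighg1 of the IgG class had 4, 8 and 1 reads in the BAPN females, 1 in the BAPN male and none with vehicle. Immunoglobulin genes are near-identical in part, and how reads shared between them were counted is not given in the sources used here.

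For each tested member the other tested genes were ranked by how closely their profile over the 8 libraries followed it, as the root mean square difference of log2 CPM after centring each gene on its mean. Among 11021 genes Ighm was nearest to Jchain (0.33), Pou2af1 (0.56) and Cd79b (0.69), and Igh-6 was nearest to Mzb1 (1.03), followed by Ighm (1.19) and Ighv1-58 (1.37). After Ighm, the nearest to Cd79b were the metallothionein gene Mt1 (0.88) and the small nucleolar RNA SNORD22 (0.90), neither of them a B lineage gene. Pou2af1 and Jchain differed from each other by 0.35. The next genes for both were the T cell receptor complex genes Cd3e and Cd3g (0.79 each for Pou2af1, 0.95 and 0.97 for Jchain). Xbp1 was nearest to Tfdp1, Dhx15 and Zfp24 (0.06 to 0.07), genes that varied as little as it did, and its distance to the closest member was 1.52.

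**Figure D3:**
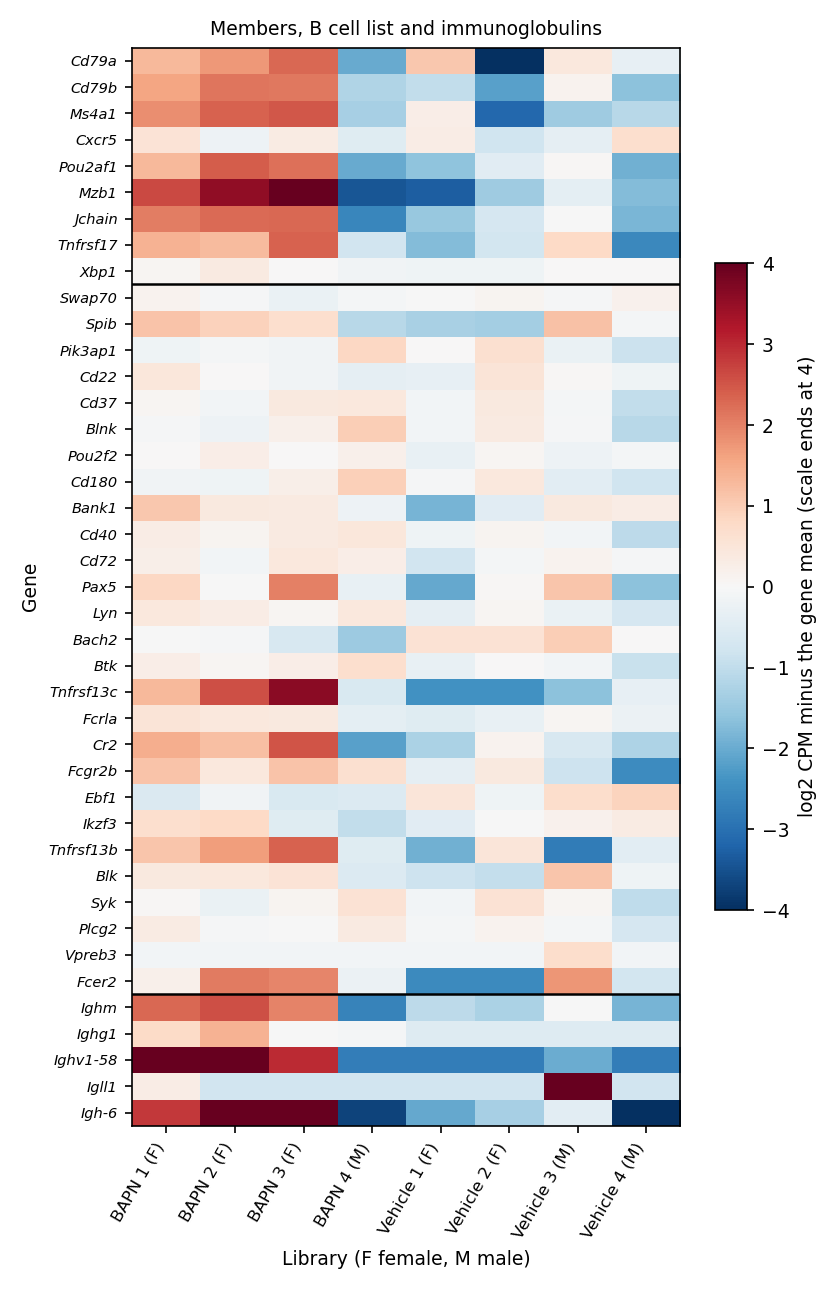
Log2 CPM (prior count of 2 reads) of each gene minus its mean over the 8 libraries, for the 9 members, genes of the B cell identity and signaling list, and 5 immunoglobulin genes, separated by lines. Columns are libraries. Red in the 3 BAPN females is strong for 7 members, Tnfrsf13c, Cr2, Tnfrsf13b and the heavy chain genes other than Ighg1, and most of the signaling genes are pale.

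Other genes of the B lineage were taken from lists written by hand. Across 7 lists (B cell identity, germinal center, plasma cell program, unfolded protein response, B cell niche, antibody receptors and immunoglobulins), 13 of 74 tested genes were called by edgeR, 11 higher and 2 lower with BAPN, beside 16.8% of all tested genes called in either direction. The 13 include Ighv1-58, described above. With sex as a covariate, chosen for the lists after seeing the data, 5 of the 13 kept their calls, Ebf1, Bcl6, Sec11c, Dnajb11 and Ighv1-58. Of the 28 genes for B cell identity and receptor signaling 18 were tested, and only Lyn, a kinase shared with myeloid cells, was called higher (log2 fold change 0.60, standard error 0.18, FDR 0.0436) and only Ebf1, a factor also active in stromal and fat cells, lower (-0.999, standard error 0.22, FDR 0.0201). The median log2 fold change of the list was 0.35, against 0.02 over all tested genes. 10 of the 28 had too few counts to be tested, and of these Tnfrsf13c, Cr2 and Tnfrsf13b had all 3 BAPN females above the other 5 libraries. Tnfrsf13c, which encodes the BAFF receptor of B cells, had 34, 92 and 162 reads in the BAPN females, 7 in the BAPN male, and 0, 0, 1 and 4 in Vehicle 1 to 4. Btk (0.62, FDR 0.0659) and the inhibitory receptor gene Fcgr2b (1.37, FDR 0.0786), both also expressed by myeloid cells, missed the threshold.

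Of 4 tested germinal center genes Bcl6 was called higher (log2 fold change 0.51, standard error 0.12, FDR 0.0247). Its levels with BAPN were 74.1, 64.2, 65.3 and 58.5 CPM in libraries 1 to 4, and those with vehicle 44.4, 52.8, 47.0 and 39.6 CPM, so that the BAPN male stood with the females here. S1pr2 (-0.30, FDR 0.0649) and Ung (0.02, FDR 0.962) were not called, and the list's median was 0.02.

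In the plasma cell program 1 of 15 tested genes was called, Sec11c, a subunit of the signal peptidase of the endoplasmic reticulum (log2 fold change 0.67, standard error 0.10, FDR 0.00863). It was at 43.1, 49.7, 48.6 and 43.0 CPM with BAPN, the male last, and at 28.3, 30.3, 29.0 and 28.0 CPM with vehicle. The groups did not overlap and the BAPN male stood with the females, unlike for Mzb1 and Jchain. The costimulatory receptor gene Cd27 had the pattern of the members (8.01, 6.48, 8.68 and 3.03 CPM with BAPN and 1.72, 2.80, 4.23 and 1.90 with vehicle, log2 fold change 1.29, FDR 0.0550), whereas Tram2 was -1.19 (FDR 0.0554). Txndc5, the highest of the list in CPM without regard to length, had a log2 fold change of -0.05 (FDR 0.864), and the plasma cell regulators Prdm1 (0.23, FDR 0.424) and Irf4 (0.38, FDR 0.463) were not called. The median of the list was 0.29.

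Of 22 genes for the unfolded protein response and Xbp1 targets, all tested, 5 were called higher and none lower (none lower in DESeq2 either, which called 6 higher), with a median log2 fold change of 0.23. They were the chaperone gene Hsp90b1 (0.67, standard error 0.15, FDR 0.0230), the cochaperone gene Dnajb11 (0.57, standard error 0.12, FDR 0.0186), the stress transcription factor Atf4 (0.52, standard error 0.12, FDR 0.0261), Creld2 (0.74, FDR 0.0308) and Manf (0.46, FDR 0.0293), the last 2 named to complete the count. Hsp90b1 was at 814, 872, 792 and 722 CPM with BAPN, against 579, 484, 405 and 538 CPM with vehicle, with no overlap and the BAPN male again above the vehicle range. Creld2 was at 50.1, 61.7, 60.7 and 33.8 CPM with BAPN and 29.7, 26.8, 33.2 and 33.6 with vehicle, so that its BAPN male stood just above the vehicle libraries. These genes are used by any cell that secretes protein.

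The stress element found upstream of Xbp1 was in 0.0657% of all promoters (22 of 33469) and in 4 of the 16 promoters of this list that were in the table. The search was chosen after the Xbp1 sequence was seen, and the list was written by hand for this stress response. These shares are therefore a description and no test of enrichment. The elements are printed to show what these genes share, in the direction that reads CCAAT first, with the fixed letters in capitals.
Xbp1 (chr14:84604558-84604576, + strand): CCAATcgcagacggCCACG
Hspa5 (chr3:38452973-38452991, + strand): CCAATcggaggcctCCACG
Hsp90b1 (chr7:23012451-23012469, - strand): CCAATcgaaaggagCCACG
Hsp90b1 (chr7:23012347-23012365, + strand): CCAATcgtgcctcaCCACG
Dnajc3 (chr15:102432534-102432552, + strand): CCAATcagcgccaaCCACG
Creld2 (chr7:121789239-121789257, - strand): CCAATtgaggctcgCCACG
The strand is that of the printed letters. Hsp90b1 holds the element on both strands. Of these 5 genes Hsp90b1 and Creld2 were called higher with BAPN, whereas Hspa5 (log2 fold change 0.54, FDR 0.0779), Dnajc3 (0.32, FDR 0.0969) and Xbp1 were not.

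**Figure D4:**
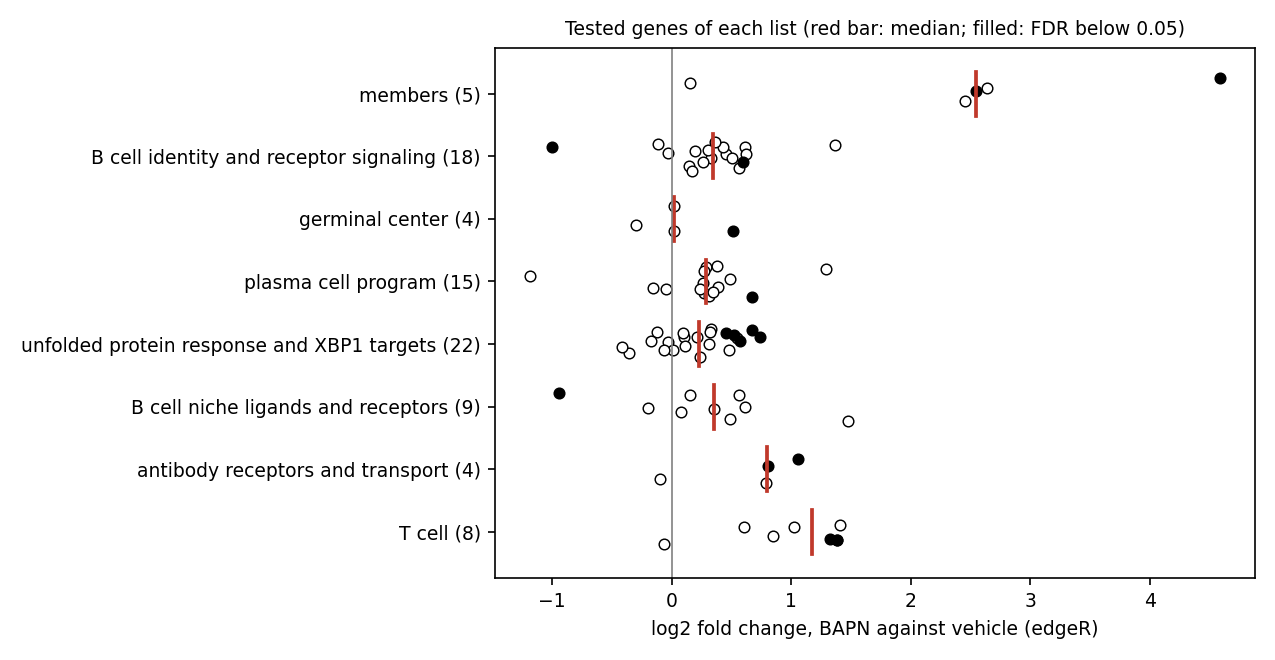
Log2 fold change of BAPN against vehicle for each tested gene of 8 lists (number tested in brackets), filled where the edgeR FDR is below 0.05, with a red bar at the list median. The members spread from 0.15 to 4.59, and the B cell identity, plasma cell and unfolded protein response lists center between 0.23 and 0.35.

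Among 9 tested ligands and receptors of the B cell niche none was called higher by edgeR (1 at an unadjusted p below 0.05, 1 called by DESeq2) and Cxcl12, a chemokine that holds plasma cells in their niches, was called lower (log2 fold change -0.94, standard error 0.27, FDR 0.0417). Cxcl12 was at 241, 165, 118 and 196 CPM with BAPN, against 366, 224, 319 and 469 CPM with vehicle, and the groups overlapped in 1 pair of libraries. Cxcl13, the ligand of CXCR5, was at 614, 650.1 and 724 CPM in the BAPN females, 181 in the BAPN male, and 97.7, 388, 181 and 113 in Vehicle 1 to 4. It shared the ordering of the members, with the BAPN male level with Vehicle 3, and its log2 fold change of 1.48 (standard error 0.55) had an FDR of 0.0762, and of 0.0482 without BAPN 4. Within libraries the log2 ratio of Cxcl13 to Cxcr5 was 7.48 ± 0.669 with BAPN and 6.05 ± 1.53 with vehicle (SD, n = 4 each), and the groups overlapped. The survival factor genes Tnfsf13b, for BAFF (0.15, FDR 0.723), and Tnfsf13, for APRIL (0.56, FDR 0.266), were not called.

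Receptors for antibody were called in 2 of 4 tested cases, Fcgr3a (log2 fold change 1.06, standard error 0.30, FDR 0.0362) and Fcgr1a (0.80, standard error 0.25, FDR 0.0474), both borne by macrophages. For Fcgr1a the BAPN male, at 210.5 CPM, was the highest library (172, 134 and 169.5 CPM in the BAPN females and 62.9 to 143 with vehicle), opposite to its place for Mzb1 and Jchain. It was also the highest library for some genes of the B cell list, among them Blnk (110 CPM) and Cd180 (155 CPM).

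Markers of other cell types stood beside these results as follows. In smooth muscle 5 of 8 genes were called lower and none higher (median log2 fold change -1.12), among them Myh11 (-1.60, FDR 0.0148), and the summed level was 1655 to 4207 CPM in the BAPN females, 1668 in the BAPN male and 3204 to 5950.2 with vehicle. In endothelium 3 of 7 tested genes were called lower and none higher (median -0.97), among them Tek (-1.24, FDR 0.00890), with summed levels of 323 to 449 CPM in the BAPN females, 230.3 in the BAPN male and 558 to 1298 with vehicle. In fat 1 of 7 tested genes was called lower, Plin1 (-2.13, FDR 0.0443), and none higher (median -1.43, 5 called lower by DESeq2), with summed levels of 1116 to 1719 CPM in the BAPN females, 2967 in the BAPN male and 514 to 1779.7 with vehicle. The BAPN male lay below the vehicle range in the smooth muscle and endothelial sums. Its fat sum was nearly all Fabp4 (2891 CPM), the highest gene of that list in every library. For Lipe (11.6 CPM) and Cidec (2.41 CPM) the BAPN male was the lowest of the 8 libraries, and for Pparg the highest (log2 CPM 5.39). For Plin1, Adipoq, Retn and Lep the lowest was Vehicle 4. Of 10 T cell genes 8 were tested and 2 called higher, Cd2 (1.38, standard error 0.31, FDR 0.0138) and Cd8a (1.33, standard error 0.33, FDR 0.0281, and 0.0649 with sex as a covariate), and 6 of the 8 had all 3 BAPN females above the other 5 libraries. Cd3e was at 16.3, 12.4 and 23.3 CPM in the BAPN females, 3.80 in the BAPN male and 2.05 to 8.76 with vehicle, so that the BAPN male was low for T cell receptor genes too. Cd8a, at 15.8 CPM in that male, was above the vehicle range of 3.64 to 12.1 CPM. With each library left out in turn, Sec11c, Cd2, Myh11 and Tek kept their calls in all 8 fits, Plin1 in 1, Dnajb11 in 7, Ebf1 and Ighv1-58 in 6 and Hsp90b1 in 5, and the other called genes of the B lineage and T cell lists and Igh-6 in at most 4. Plasmacytoid dendritic cells also express Mzb1 and Jchain. Of 6 tested genes of these cells none was called higher by edgeR (1 at an unadjusted p below 0.05, 0 called by DESeq2). Tcf4 was called lower (-0.71, FDR 0.0299), as was Tek of endothelium. The plasmacytoid surface marker Siglech was at 7.45, 6.56 and 1.86 CPM in the BAPN females, 1.18 in the BAPN male, and 0.233, 2.36, 6.45 and 2.95 in Vehicle 1 to 4. BAPN 1 and BAPN 2 were thus highest, and BAPN 3 was below Vehicle 2 to 4. Whether these cells contributed to the member values was not tested. No macrophage gene of 10 was called by edgeR (2 at an unadjusted p below 0.05, 2 called higher by DESeq2), and Lyz2 and Mertk had every BAPN library above every vehicle library, at an FDR of 0.0722 and 0.0699.

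Tissue next to the vein was checked by its own genes. Of the lymph node and follicular dendritic cell list, Fdcsp and Chst4 were at 0 in all 8 libraries, Madcam1 had at most 2 reads, Cr2, also borne by B cells, was at 2.19, 1.83 and 4.55 CPM in the BAPN females, 0.125 in the BAPN male and at most 0.836 with vehicle, and Ccl21 overlapped between groups (270.0 to 344 CPM with BAPN, 202 to 524 with vehicle). The summed level of that list was 595 to 722 CPM in the BAPN females, 448 in the BAPN male and 536 to 1205 with vehicle. The summed level of 12 mammary and other epithelial genes was 19.7 to 103.8 CPM in the BAPN females, 4.53 in the BAPN male and 5.36 to 73.2 with vehicle, with no gene of the list called by edgeR in 4 tests (1 at an unadjusted p below 0.05, 0 called by DESeq2). The milk protein gene Csn3 was at 13.1, 48.5 and 9.69 CPM in the BAPN females, 5.59 and 35.5 in the vehicle females, 0.419 in Vehicle 3 and 0 in the other males. Vehicle 2 had more Csn3 than BAPN 1 and BAPN 3, and less than either of them of all 9 members. BAPN 2 had the most Csn3 of all libraries, and among the members the most Cd79b, Pou2af1 and Xbp1. BAPN 3 had the most Cd79a, Ms4a1, Mzb1, Jchain and Tnfrsf17. The part of these cell types in the member values was not tested.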

How the data were processed

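RNA of 8 outflow veins, 1 library per rat, was measured after ribosomal RNA depletion with a stranded kit. The submitters' processing notes name bcl2fastq 2.17, Trim Galore and STAR. The authors deposited raw counts of reads per gene, without normalization, and these counts were used as they are. The counting tool, its strand setting and the genome build are not given in the sources used here. Library totals ranged from 19548203 to 52241007, and the libraries of a group differed by more than counting noise (chi-square per degree of freedom 68.58 to 320.8).

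Groups came from the sample labels. A minimum base mean of 100 (DESeq2 size factors), as in the study's methods, set which genes were tested with edgeR 4.0.16 (TMM, quasi-likelihood F test, no covariate, Benjamini-Hochberg FDR over 11682 genes) in R 4.3.3. DESeq2 1.42.0 was an alternative, since the study used DESeq. Standard errors came from limma 3.58.1 (voom), log2 CPM used a prior count of 2, and exact permutation tests were two-sided over 70 arrangements. The other alternatives were scaling by RLE, upper quartile or totals, other low-count filters, sex as covariate, females alone, the replicate number as block, counts thinned to 19548203 reads, a prior count of 0.5 for ratios, and each library left out. The fit with a sex by treatment term for the effect in each sex, the unfiltered fits of fewer libraries and the sex covariate for the lists were added after seeing the data. The edgeR steps were tested on simulated data.

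The members and lists were chosen with earlier results of these data known. Beside the members, the text names the 3 tested genes with the smallest FDR and the gene of a list with the highest mean CPM, without regard to length, where they bear on the members, and the 3 nearest profiles of each tested member. Tnfrsf13c, Cr2, Tnfrsf13b, Btk and Fcgr2b of the B cell list, Prdm1, Irf4, Creld2, Manf, Hspa5, Dnajc3, Tnfsf13b, Tnfsf13, Cd3e, the sparse genes and the adjoining tissue genes outside that rule were named after their values were seen. So were the fat genes outside it. Promoter windows (250 bases before to 50 after the start, 300 in all) are from RefSeq, GRCr8, in which 4 of the 9 members were found. Some listed genes are not reported here. No transcript lengths were used, so CPM do not rank genes by their transcript number.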

Additional observations from a re-analysis of the deposited data

Results flagged for a closer look

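On the log2 CPM scale 3 genes had the BAPN male apart from the other libraries of its group by Dixon's test, Cd79b at -0.35, Ms4a1 at -1.44 and Jchain at 2.31, among 36 groups checked. Chance gives such a mark in about 0.05 of groups. The fitted treatment effect was positive in females and negative in males for all 9 members, and for 5 of them the libraries themselves lay that way, every BAPN female above both vehicle females and the BAPN male below both vehicle males, as in 2.84% of genes with at least 1 read. For these 5 the male minus female difference in log2 fold change is given. It was -4.08 for Cd79a (without a filter, FDR 0.489), -4.47 for Pou2af1 (FDR 0.257), -8.63 for Mzb1 (FDR 0.154, and 0.0201 without a filter), -5.20 for Jchain (FDR 0.178, and 0.0227 without a filter) and -0.48 for Xbp1 (FDR 0.476). The male side holds 1 BAPN library.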

How the results depend on the processing

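The number of tested genes called was 1957, and it moved to 3202 with DESeq2, 930 with sex as a covariate, 89 among females alone, 14 for females in the sex by treatment fit, and 397 (without Vehicle 1) to 2215 (without Vehicle 2) with each library left out. The number of members called, 2 of 5, moved to 4 with DESeq2, 1 with total counts only (Cd79b then missed, at FDR 0.0556), 0 with sex as a covariate, 0 for females in the sex by treatment fit (4 at an unadjusted p below 0.05), and 0 to 4 with each library left out. Without a filter it was 4 among females alone, 4 for females in the sex by treatment fit, and 0 to 5 with a library left out. Calls in the 7 lists moved from 13 to 22 with DESeq2 and 5 with sex as a covariate. The labels share only a replicate number between groups, and same-numbered libraries did not deviate together (correlations 0.0944, -0.265, 0.269 and -0.14). With the replicate number as a block edgeR called 556 genes, 0 members (4 at an unadjusted p below 0.05, Cd79b at FDR 0.0764 and Mzb1 at 0.108) and 2 list genes. Cxcr5 changed sign without a filter when BAPN 1 (-0.12), BAPN 3 (-0.0115), Vehicle 2 (-0.13) or Vehicle 3 (-0.0635) was left out. The cause of these moves was not tested. In the vehicle libraries Cd79a, Ms4a1 and Tnfrsf17 rest on 0 to 58 reads, which limits their fold changes.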

Other observations

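Within libraries, ratios between members do not depend on scaling. The log2 ratio of Jchain to Cd79b was 4.54, 4.2 and 4.27 in the BAPN females, 2.66 in the BAPN male, and 3.56, 5.57, 3.91 and 3.88 in Vehicle 1 to 4 (3.92 ± 0.850 against 4.23 ± 0.908, SD, n = 4 each), and the groups overlapped. The log2 ratio of Xbp1 to Mzb1 was 3.15, 2.53 and 1.62 in the BAPN females, against 9.004 in the BAPN male and 6.14 to 8.84 with vehicle. The low-affinity IgE receptor gene Fcer2, named after its values were seen, had 16, 69 and 54 reads in the BAPN females, 11 in the BAPN male and 0, 0, 26 and 3 in Vehicle 1 to 4.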
